A study of Homo sapiens with 24 samples.

Results

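The genes described here encode the core and linker histones that cells make in bulk while DNA is copied, together with the few other genes that share their naming scheme. Members were the regions of the deposited H3K27ac tables in which the authors placed a gene whose symbol begins with H1-, H2AC, H2BC, H3C or H4C and a number, either over the region or within 10 kb of it. There were 340 such regions among 171345 in the 6 tables: 59 of 50284 regions for shANCO1 against shCTRL in 10A, 66 of 44790 in DCIS, and 50, 61, 55 and 49 in the tables of 10A shCTRL, 10A shANCO1, DCIS shCTRL and DCIS shANCO1 cells against input. GENCODE release 44 holds 74 protein-coding genes with such a symbol, 65 of which the authors' tables named at least once.

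H3K27ac, the acetylation of lysine 27 on histone H3, is found at promoters and enhancers in use, and ChIP-seq maps it by sequencing the DNA fragments that an antibody recovers. The 24 libraries fell into 8 groups of 3: MCF10A (10A), a non-tumorigenic human mammary epithelial line, and MCFDCIS (DCIS), a related line that models ductal carcinoma in situ, each carried either a lentiviral short hairpin against ANCO1 (shANCO1) or a control hairpin described as shGFP (shCTRL), and each combination was sequenced after H3K27ac immunoprecipitation and as input chromatin. ANCO1 is the protein of ANKRD11, and the comparison within each line asks what its depletion does to H3K27ac. Per the study's methods the shANCO1 cells of the ChIP experiment came from 1 hairpin line, both lines were grown with EGF, hydrocortisone, insulin and cholera toxin, and nothing in the sources used here says that the 3 libraries of a group were separate cultures. The tables used give 1 value per region and comparison, so neither the level in each library nor the spread between libraries could be shown, and significance below is that of the authors' csaw test over 3 libraries a group.

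Replication-dependent histone genes are short, lack introns and lie in clusters, and their messages end in a conserved stem-loop instead of a poly(A) tail. Their transcription rises in S phase and is organised in the histone locus body, where the coactivator NPAT gathers at the promoters. Many copies encode the same or nearly the same protein, and H2A and H2B genes commonly sit head to head and share 1 promoter. In contrast, replication-independent histones such as H2A.Z, H3.3 and the linker histone H1.10 are made throughout the cell cycle from genes with ordinary poly(A) messages.

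The larger clusters, called the clusters below, lie on chromosome 6 at 6p22 and on chromosome 1 at 1q21. With genes under 200 kb apart joined, 32 genes formed a large block at 6p22 (GRCh38 chr6:26017032-26285534), 5 a middle block (chr6:27132316-27147562) and 16 a distal block (chr6:27807479-27893891), while 11 genes formed the 1q21 block (chr1:149811879-149887965). The genes outside these 4 blocks were a testis pair at 6p22, a pair at 1q42 and 6 lone genes. By protein there were 10 H1, 17 H2A, 19 H2B, 13 H3 and 15 H4 genes.

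The stem-loop was used to check that the genes are of the replication-dependent kind. A perfect stem of 6 bases opening with GG around a loop of 4 was found within 150 bases after the stop codon in 67 of 74 genes, from 22 to 67 bases after it, with a median of 35. It is shown here because it is the feature that defines the family, with the stem in capitals. The first form was found in 40 genes, H1-2, H1-4 and H3C1 among them, the second in 10, H4C11 among them, and the third in 9, H2BC5 among them.

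H3C1 stem-loop: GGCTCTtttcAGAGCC
H4C11 stem-loop: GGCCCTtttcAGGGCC
H2BC5 stem-loop: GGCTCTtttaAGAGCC

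No such stem-loop followed the stop codon of H1-10, H1-7, H1-8, H2BC12L, H2AC11 or H2AC15. With H1-10 the rule on symbols takes in a replication-independent linker histone, and the oocyte gene H1-8 and the testis gene H1-7 are likewise no S-phase genes, so these are set apart from the clusters below. For H2AC11 and H2AC15 the search used the stop codon of the canonical GENCODE transcript only.

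The proximal promoters carry the second common feature. Exact matches on either strand to the octamer ATTTGCAT, the site of the POU factor OCT1, to CCAAT and to the TATA letters TATAAA were counted in the 250 bases before the start of 67 member promoters in the RefSeq set (GRCh38.p14), which matched 67 of the 74 genes. The octamer was present in 26 of the 67, or 38.8%, against 1.66% of 27305 promoters. CCAAT was present in 56, or 83.6%, against 33.0%, and TATAAA in 43, or 64.2%, against 11.1%. The families differed: the octamer stood in 14 of 18 H2B and 11 of 16 H2A promoters, 1 of 11 H3 promoters and none of the H1 (of 9) or H4 (of 13) promoters, and CCAAT stood in every H2A, H2B and H3 promoter but in 3 of 13 H4 promoters. H2A and H2B genes that share a promoter share these letters, so their promoters are not separate observations. The matches in the H3C4 promoter, the only H3 one with the octamer, stood at the same positions as those of the H2A gene H2AC7. The RefSeq promoter searched for H3C4 may thus be that of H2AC7, counted again among the H3 promoters, which was not tested.

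The 150 bases before the start are printed for 4 genes on which the comparisons below turn and for H2BC6. In no group did H2BC6 have a region enriched over input that lay over the gene or within 1 kb of its start. Matches to the 3 motifs are in capitals. H2BC5 (chr6:26157971-26158120, plus strand) lies beside the member region with the lowest FDR in 10A. H3C1 (chr6:26020301-26020450, plus strand) and H1-2 (chr6:26056471-26056620, minus strand) belong to the loci that were lower in DCIS, H4C11 (chr6:27823942-27824091, plus strand) has an H4 promoter with neither CCAAT nor octamer, and H2BC6 (chr6:26183611-26183760, plus strand) keeps the octamer and CCAAT.

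H2BC5: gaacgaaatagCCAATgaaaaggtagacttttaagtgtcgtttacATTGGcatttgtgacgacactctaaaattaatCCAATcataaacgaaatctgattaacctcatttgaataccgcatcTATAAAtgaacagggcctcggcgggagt
H3C1: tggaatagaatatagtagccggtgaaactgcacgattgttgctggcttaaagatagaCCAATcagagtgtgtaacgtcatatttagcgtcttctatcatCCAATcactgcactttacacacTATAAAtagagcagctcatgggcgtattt
H1-2: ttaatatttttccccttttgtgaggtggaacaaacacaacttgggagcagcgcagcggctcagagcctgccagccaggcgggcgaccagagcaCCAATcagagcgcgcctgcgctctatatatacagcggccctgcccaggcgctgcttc
H4C11: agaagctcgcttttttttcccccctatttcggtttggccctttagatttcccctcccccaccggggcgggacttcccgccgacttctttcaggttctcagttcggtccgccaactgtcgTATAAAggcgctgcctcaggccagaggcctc
H2BC6: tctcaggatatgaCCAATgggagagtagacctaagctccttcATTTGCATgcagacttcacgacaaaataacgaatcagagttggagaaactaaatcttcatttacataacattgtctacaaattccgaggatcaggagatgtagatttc

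The tables against input show which histone genes carried H3K27ac. They list enriched regions almost exclusively, since 100% of the listed regions passed the FDR of 0.05 in 10A shCTRL and 10A shANCO1 cells, and 100% to 3 digits in DCIS shCTRL and DCIS shANCO1 cells, so a gene with no region there is described as not listed. An enriched region lay over the gene or within 1 kb of its start for 45 of the 74 genes in 10A shCTRL cells and for 55 in each of 10A shANCO1, DCIS shCTRL and DCIS shANCO1 cells. By the start site alone these counts were identical, and of 19962 protein-coding genes the same held for 24.9% in 10A shCTRL, 46.6% in 10A shANCO1, 33.5% in DCIS shCTRL and 34.8% in DCIS shANCO1 cells, against 60.8% of histone genes in the first group and 74.3% in the other three. With any placement by the authors within 10 kb, 56 genes were named in the table of 10A shCTRL cells and 63 in each of the others.

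Of the 74 genes, 45 were listed in all 4 groups. They comprised 13 of 17 H2A, 12 of 19 H2B, 8 of 13 H3, 8 of 15 H4 and 4 of 10 H1 genes, and 26 of the 32 genes of the large 6p22 block. The 55 genes of DCIS shCTRL cells and the 55 of DCIS shANCO1 cells were identical, so in DCIS no histone gene was listed in only 1 of the hairpin groups. How many of all protein-coding genes were listed in all 4 groups, in none, or in only 1 hairpin group was not counted. Such counts, here and below, are thus not set apart from those of genes at large.

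**Figure D1:**
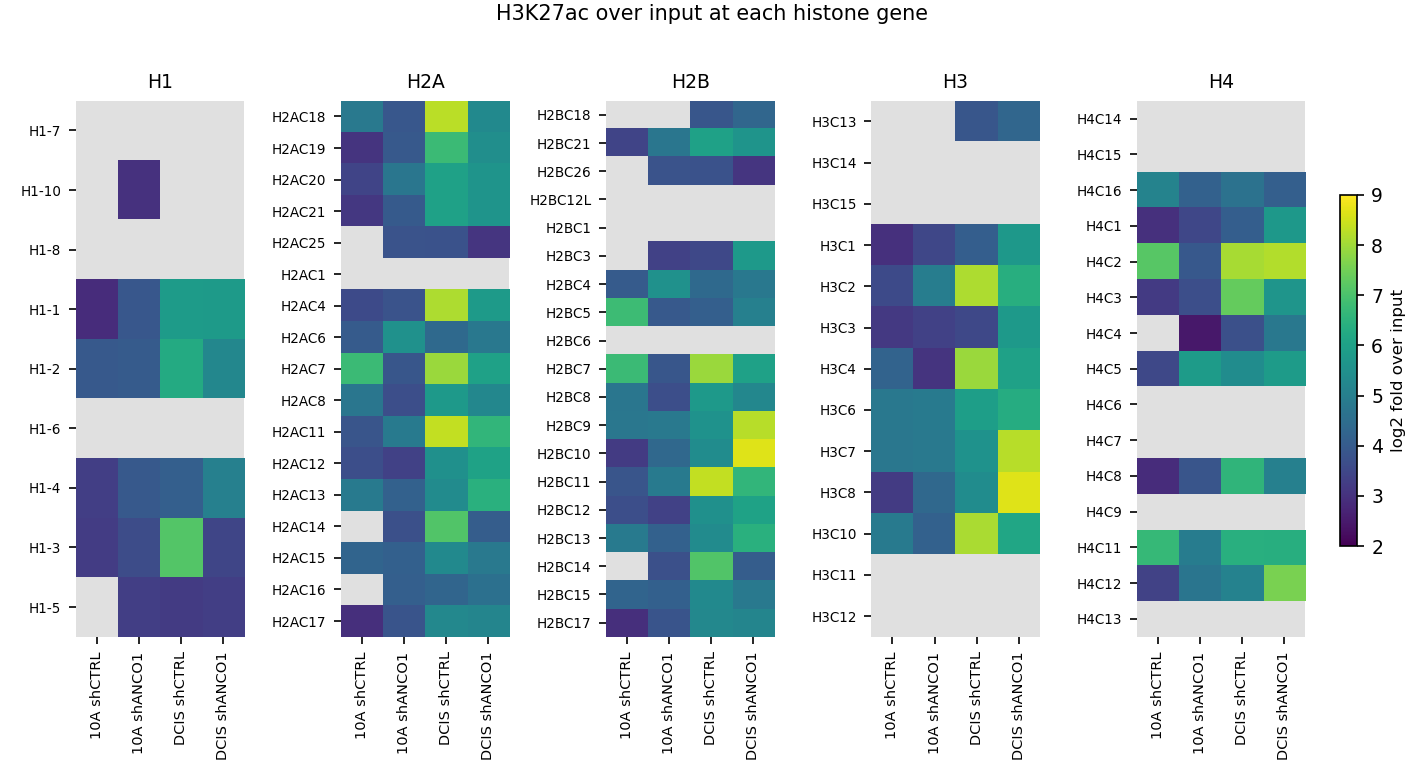
H3K27ac over input at protein-coding histone genes, by family in chromosomal order, for the 4 groups. Colour gives the authors' log2 fold over input in the enriched region with the lowest FDR over the gene or within 1 kb of its start, and grey marks genes with no such region, of which 17 are grey in all 4 columns.

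In 10A, 10 genes were listed in shANCO1 cells and not in shCTRL cells, and none the other way round. Those inside the clusters were H2BC3, H4C4, H2AC14, H2BC14, H2AC16 and the linker histone gene H1-5, and those outside them included the pair H2AC25 and H2BC26 at 1q42 and the lone gene H1-10. Their log2 folds over input in 10A shANCO1 cells ran from 2.44 at H4C4 (FDR 4.97e-09) through 3.29 at H1-5 (FDR 2.93e-12) to 4.13 at H2AC16 (FDR 8.13e-15). The pair H2AC14 and H2BC14 shared 1 region with a log2 fold of 3.70, and H2BC3 stood at 3.35. Each of these 6 cluster genes was listed in both DCIS groups, whereas H1-10 (2.99 in 10A shANCO1 cells) was not listed in either.

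This gain in listed genes accompanied a larger table. All regions together spanned 9.04 Mb in 10A shCTRL and 25.3 Mb in 10A shANCO1 cells, a ratio of 2.79, and member regions spanned 25.3 kb and 66.8 kb, a ratio of 2.64. In DCIS all regions spanned 10.96 Mb in shCTRL and 11.9 Mb in shANCO1 cells, a ratio of 1.08, and member regions 85.1 kb and 73.0 kb, a ratio of 0.858. The mean log2 fold over input of member regions was 3.88 in 10A shCTRL, 3.96 in 10A shANCO1, 5.68 in DCIS shCTRL and 5.39 in DCIS shANCO1 cells. Listed length moves with the number of regions that passed the authors' threshold, and the part of library depth in it was not tested.

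Member regions stood higher over input than the average listed region in DCIS but hardly so in 10A shCTRL cells. Their median log2 fold over input was 5.53 in DCIS shCTRL cells (quartiles 4.33 and 6.83) against 4.09 for all regions, and 5.24 in DCIS shANCO1 cells (4.68 and 6.01) against 4.47. In 10A it was 3.40 in shCTRL cells (3.14 and 4.34) against 3.32, and 3.78 in shANCO1 cells (3.32 and 4.35) against 3.40. Member regions of DCIS shCTRL cells held a median of 11 windows, the short stretches in which csaw counts reads, against 4 over all regions, and those of 10A shCTRL cells held 3 against 3. The folds of different tables were each set against their own input and normalised by the authors, so levels are compared within a table.

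Within the families, the gene with the lowest FDR over input in 10A shCTRL cells was H1-2 for the linker histones, with a log2 fold of 3.96, H3C6 for H3 with 4.79 and H4C8 for H4 with 2.90. For H2A and H2B it was the head-to-head pair H2AC15 and H2BC15, which shared a region with a log2 fold of 4.27. In DCIS shCTRL cells these genes were H1-1 with 5.83, H2AC19 with 6.76, H2BC21 with 6.01, H3C8 with 5.39 and again H4C8 with 6.58. H3C8, which shares its region with H2BC10, had the highest log2 fold of any histone gene in DCIS shANCO1 cells, 8.67, against 5.39 in DCIS shCTRL cells. Each fold is that of 1 representative window, however, and neither region of that locus passed the direct test. Their log2 fold changes were 0.92 (FDR 0.0934) and -0.36 (FDR 0.834).

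The enriched regions lay on both sides of the start site. In DCIS shCTRL cells the base 500 bp upstream of the start was covered in 60.8% of histone genes, the start itself in 32.4% and the base 500 bp downstream in 62.2%. In 10A shCTRL cells these shares were 29.7%, 1.35% and 31.1%, and in 10A shANCO1 cells 51.4%, 17.6% and 55.4%. Over all protein-coding genes the shares in DCIS shCTRL cells were 14.2%, 10.99% and 17.3%, so the upstream shoulder stood nearly as high as the downstream one at histone genes. Neighbouring histone genes, including head-to-head pairs, lie within this distance of each other, and 1 region can serve the flank of both.

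**Figure D2:**
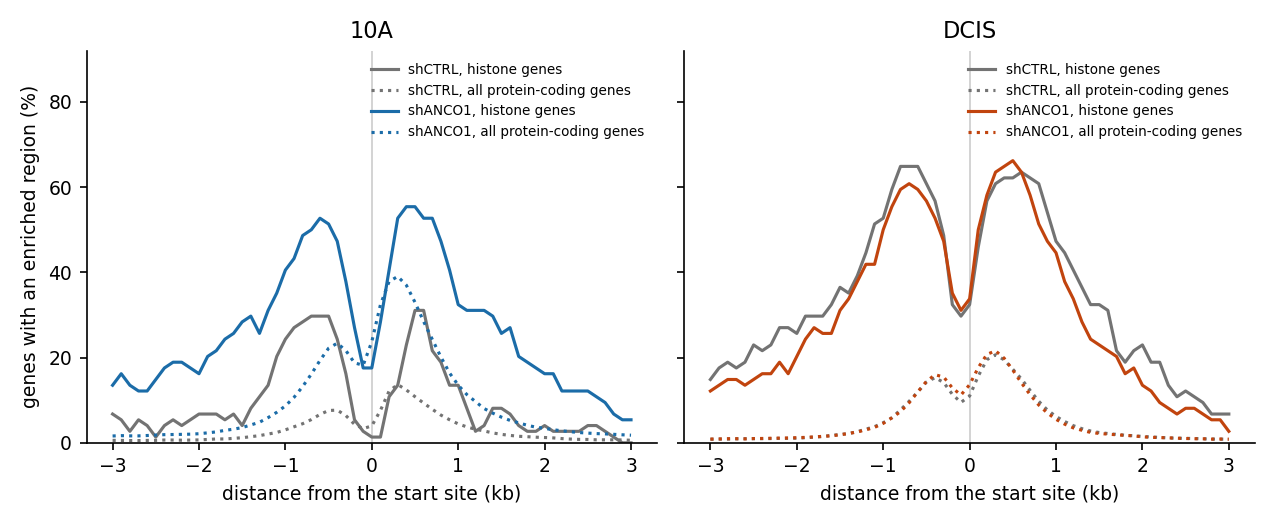
Share of genes with an enriched region at each distance from the start site, in kb along the direction of transcription, for 74 histone genes (solid) and 19962 protein-coding genes (dotted). Histone genes show shoulders on both sides of the start in both lines, higher in DCIS than in 10A shCTRL cells, with peaks of 31.1% in 10A shCTRL, 55.4% in 10A shANCO1, 64.9% in DCIS shCTRL and 66.2% in DCIS shANCO1 cells.

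A set of 17 genes was listed in none of the 4 groups. Among them were 5 genes known for expression in the germ line, H2AC1 and H2BC1 of the testis pair, H1-6 and H1-7 of testis and H1-8 of oocytes. In the 1q21 block 4 more, H3C14, H3C15, H4C14 and H4C15, lie in a duplicated stretch. The other 8 were H2BC6, H4C6, H4C7, H4C9, H4C13, H3C11 and H3C12, all 7 within the 6p22 blocks, and H2BC12L on chromosome 21. In the order of the genes H4C6 and H4C7 adjoin each other, and so do H3C11, H4C13 and H3C12. Promoters of this set held TATAAA in 7 of 14 cases, the octamer in 3 and CCAAT in 11. Among 42 promoters of genes listed in all 4 groups the counts were 30, 18 and 36. Of the 17 genes, 6 were H4, 4 H3 and 3 H1, families whose promoters rarely or never held the octamer. Whether the motif shares differ apart from family was not tested.

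The duplicated stretch at 1q21 carries a mapping limit. Of all stretches of 100 bases within 1 kb of the start, 100% recurred at the start of another histone gene for H3C14, H4C14 and H4C15 and 99.8% for H3C15. The share was 87.4% for both H2AC18 and H2AC19, which were listed in all 4 groups, and at most 15.5% for any other gene. Reads from such copies cannot be assigned with certainty, and the part of this in the missing regions was not tested.

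In 10A most member regions carried more H3K27ac in shANCO1 than in shCTRL cells. Of the 59 member regions, 44 were higher in shANCO1 cells at an FDR under 0.05 and none was lower, which is 74.6%, where 43.6% of all regions of that table were called higher and 0.225% lower. In the 4 blocks, 23 of 30 regions rose in the large 6p22 block, 4 of 5 in the middle block, 11 of 15 in the distal block and 3 of 4 at 1q21. Of the 54 member regions in these clusters, 41 were thus higher. The remaining member regions lay at lone H1 genes, H1-10 among them, or near the pseudogene H1-9P. The authors' log2 fold change was positive in 59 of 59 member regions, from 0.06 to 1.60 with a median of 0.89 (quartiles 0.75 and 1.02), against a median of 0.76 over all regions, of which 91.8% were positive.

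The extent of the regions bears on this count. Member regions in 10A held a median of 18 windows against 9 over all regions, and longer regions were called more often: 74.9% of the 11087 regions with at least 20 windows were higher, as were 50.8% of promoter-annotated regions. Among member regions 25 of 26 with at least 20 windows rose and 5 of 14 with under 10 windows. No member region exceeded the median of its table by 1 on the log2 scale. By start site, 54 of 59 histone genes with a tested region lay at one that rose, 91.5%, against 64.6% of 11340 protein-coding genes tested in the same way, although those 59 genes rest on 40 distinct regions.

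**Figure D3:**
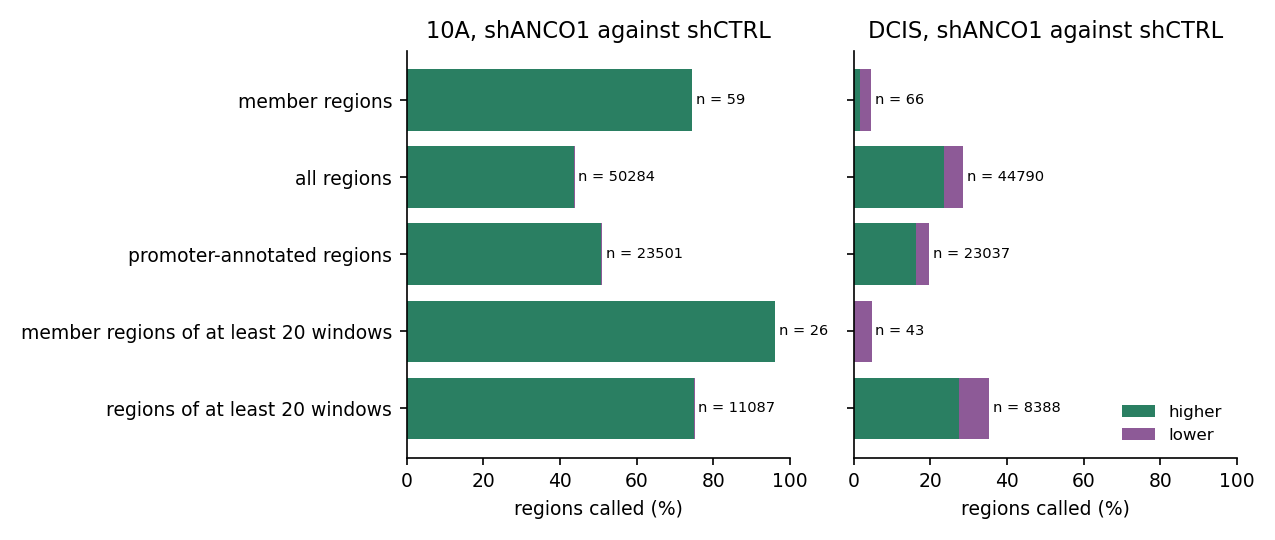
Share of regions called higher or lower in shANCO1 than in shCTRL cells at an FDR under 0.05, as percent of the number of regions printed at each bar, for member regions and for all, promoter-annotated and long regions of each table. In 10A member regions reach 74.6% higher, and in DCIS 1.52% are higher and 3.03% lower.

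The member region with the lowest FDR in 10A covered H2BC5, an H2B gene, and lay downstream of the linker histone gene H1-4 (chr6:26158201-26160200, log2 fold change 1.60, FDR 8.35e-05), with 14 of its 19 windows higher. The H2BC5 promoter printed above lies directly upstream of it. The next was at H4C11 (chr6:27822701-27824100, 0.97, FDR 0.000569), covering the H4C11 promoter with its TATAAA. It was followed by H1-3, a linker histone gene (chr6:26233901-26235800, 1.10, FDR 0.000971), by the region over H3C1 and H4C1 (chr6:26019401-26023100, 0.94, FDR 0.00116) and by the region over H4C5 (chr6:26203601-26206700, 0.93, FDR 0.00125). In the last of these 26 of 30 windows were higher.

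By family, and beside the 64.6% of protein-coding genes given above, the linker histones rose at every gene with a tested region, 7 of 7, with log2 fold changes from 0.61 at H1-1 to 1.26 at H1-5. The same held for 10 of 10 H4 genes, and for 8 of 9 H3, 15 of 16 H2A and 14 of 17 H2B genes. The exceptions were H2BC18 and H3C13, which share a region at 1q21 (log2 fold change 0.38, FDR 0.607), H2BC6 (0.41, FDR 0.4), and the pair H2AC14 and H2BC14 (0.85, FDR 0.051). These counts include genes outside the clusters: H1-10 rose (1.02, FDR 0.0103), and so did the region over H2AC25 and H2BC26 at 1q42 (0.99, FDR 0.00727) and that over H4C16 (0.86, FDR 0.00514). The authors' tables name those 3 genes H2AW, H2BU1 and H4-16, so their regions are not among the 59. The H4 count includes H4C13, which was listed in no group over input, at a region of 4 windows (1.02, FDR 0.0123). Families also share regions, as H3C1 and H4C1 do, so their counts are not separate observations.

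In DCIS few member regions were called. Of 66 member regions 1 was higher and 2 were lower at an FDR under 0.05, or 1.52% and 3.03%, where 23.6% of all regions of that table were called higher and 4.86% lower. The 58 regions in the clusters on chromosomes 1 and 6 included none that was higher. Among promoter-annotated regions 16.3% were higher and among regions of at least 20 windows 27.5%, whereas of 43 member regions of that length none was higher and 2 were lower. The median log2 fold change of member regions was -0.03 (quartiles -0.87 and 0.51) against 0.52 over all regions and 0.33 over promoter-annotated regions, and 30 of 66 were positive. Counted by gene the order was the opposite. The region with the lowest FDR within 1 kb of the start had a median log2 fold change of 0.38 over 58 histone genes, against 0.19 over 11159 protein-coding genes. Those 58 genes rest on 37 distinct regions, so shared regions count more than once. The medians thus do not place the members on 1 side of the rest. Of single windows, 9 of 1504 member windows were higher, 0.598%, against 17.5% of all windows.

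The log2 fold changes of the 66 regions in DCIS ran from -2.18 to 1.89, where those of all regions ran from -7.39 to 7.80. They were at least 1 in size in 15 of the 66, or 22.7%, against 41.99% of all regions and 52.1% of regions with at least 20 windows. Their median FDR was 0.692, against 0.330 over all regions of the table, and 36.4% of them were mixed in direction, with windows moving both ways, against 17.4% of all regions. A fold change here is that of 1 representative window, which in a region of mixed direction stands for only part of it, and its error is unknown.

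**Figure D4:**
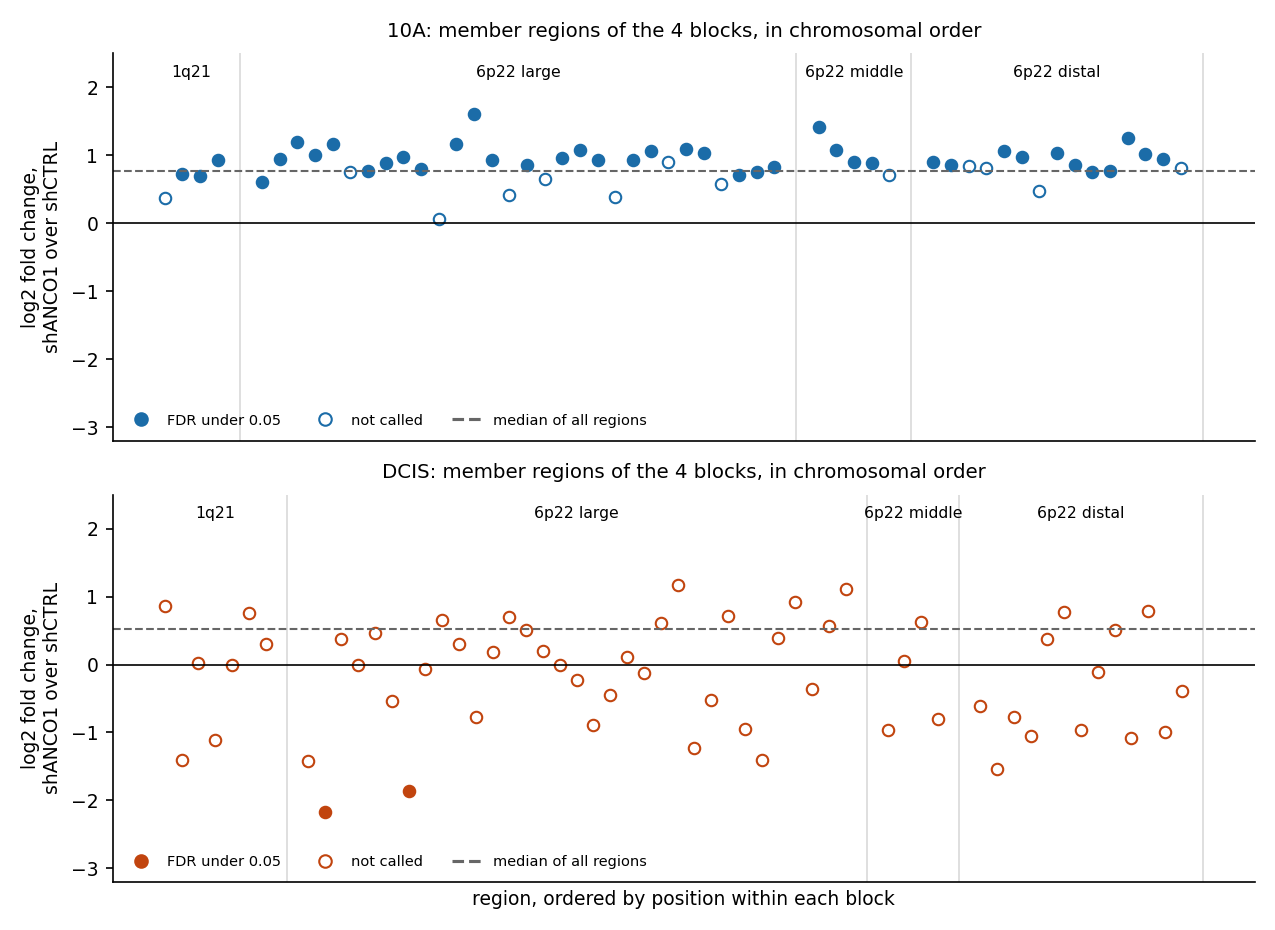
Authors' log2 fold change of each member region in the 4 blocks, in chromosomal order, for 10A (top) and DCIS (bottom); filled points passed an FDR of 0.05 and the dashed line is the median of all regions of that table (0.76 and 0.52). In 10A every point lies above 0, and in DCIS the points scatter on both sides of 0 with 2 filled points below it.

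The single higher region in DCIS was 300 bp with 2 windows (chr3:129310501-129310800, log2 fold change 1.89, FDR 0.00175). It lay over H1-10-AS1, a noncoding antisense RNA beside H1-10, and not at the H1-10 start, where the DCIS region was not called (log2 fold change -0.58, FDR 0.768).

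The lower regions were both in the large 6p22 block. The first spanned H3C1 and H4C1 (chr6:26019601-26023900, log2 fold change -2.18, FDR 0.0169), where 2 of 38 windows were lower. The second covered the linker histone gene H1-2 (chr6:26053901-26058600, -1.86, FDR 0.0485), where 2 of 42 windows were lower. Few windows carried these calls, and at an FDR under 0.01 neither remained. The 3 genes H3C1, H4C1 and H1-2 were the only histone genes at a called region in DCIS, or 5.17% of 58 genes with a tested region, against 2.22% of protein-coding genes lower and 7.29% higher.

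Both of these loci were higher in 10A, at log2 fold changes of 0.94 (FDR 0.00116) at H3C1 and H4C1 and 0.76 (FDR 0.0139) at H1-2. They remained enriched over input in both DCIS groups. At H1-2 the log2 fold over input was 6.28 in shCTRL and 5.24 in shANCO1 cells, and at H3C1 it was 4.09 and 5.75, so the representative windows over input did not order the groups as the direct test did at H3C1.

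Across the lines, 55 of the 59 member regions of 10A overlapped a member region of DCIS. Of these, 40 were higher in 10A and not called in DCIS, 2 were higher in 10A and lower in DCIS, 13 were called in neither, and none was higher in both. The log2 fold change was larger in 10A for 50 of 55, and for 27 it was positive in 10A and negative in DCIS. Among all 29259 regions of 10A that overlapped a DCIS region, 33.7% were higher in 10A and not called in DCIS, 0.909% were higher in 10A and lower in DCIS, 34.4% were called in neither and 16.3% were higher in both. Over those regions the fold change was larger in 10A for 52.6%, and positive in 10A and negative in DCIS for 24.96%, against 90.9% and 49.1% of the member regions. Whether the lines differ could not be tested, because the fold changes used here come without standard errors and each line has its own table. Neighbouring 10A regions can share 1 DCIS region, so these counts are not independent.

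**Figure D5:**
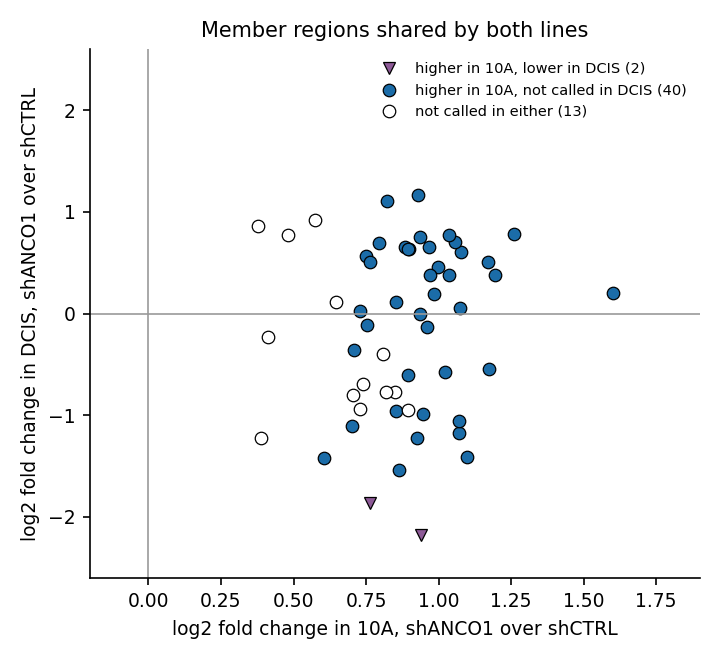
Authors' log2 fold change, shANCO1 over shCTRL, of the 55 member regions of 10A (horizontal axis) and of the DCIS region sharing the most bases with each (vertical axis). All points lie to the right of 0, 40 are higher in 10A without a call in DCIS, and the 2 triangles at H3C1 and H1-2 are lower in DCIS.

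The blocks held few other regions to set beside them. Between the first and last histone gene of the 4 blocks only 1 region without a member symbol was tested in each line. It was higher in 10A (log2 fold change 1.08) and not called in DCIS (-0.27).

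Other genes of histone supply are given beside the protein-coding genes tested by the same start-site rule, of which 64.6% rose in 10A and 7.29% in DCIS. Of 16 genes of the histone locus body and of histone RNA processing, each with a region within 1 kb of its start, 12 rose and none fell in 10A, while in DCIS none rose and 1 fell. NPAT, the coactivator at histone promoters, rose in 10A (log2 fold change 1.18, FDR 0.00257), as did CASP8AP2, a component of the same body (0.62, FDR 0.0395), and SLBP, which binds the stem-loop (0.60, FDR 0.0263). In DCIS their FDRs were 0.764, 0.816 and 0.666. The gene lower in DCIS was CCNE2, which encodes cyclin E2, an activator of the kinase CDK2 (-1.22, FDR 0.0329).

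Of 12 replication-independent histone genes, 11 had a tested region, of which 10 rose in 10A and none was called in DCIS. H2AZ1 stood at a log2 fold change of 1.35 in 10A (FDR 0.0017), H2AX at 0.83 (FDR 0.000567) and H3-3B at 1.23 (FDR 0.000105), and in DCIS at -0.38, -0.38 and 0.76 with FDRs of 0.986, 0.801 and 0.537. Of 12 histone chaperone genes, 11 of them tested, 9 rose in 10A, and in DCIS 1 rose, ASF1B (1.15, FDR 0.0485). With lists of this size the shares are not set apart from those of protein-coding genes at large.

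At ANKRD11 itself the region nearest the start did not pass in either line (10A log2 fold change 0.66, FDR 0.0764, and DCIS -0.07, FDR 0.975). A hairpin acts on the message, so this does not measure the knockdown. Of the epithelial markers, KRT5 had a promoter region enriched over input in all 4 groups and CDH1 in both DCIS groups. TP63 had regions over the gene in all 4 groups, with 1 placed at a promoter in each 10A group and none in DCIS. No region was listed at KRT14. Of the markers of other cells, PTPRC and COL1A1 had no listed region over the gene in any group. The endothelial gene PECAM1 had a region that the authors placed at a promoter of it in all 4 groups, but none within 1 kb of its canonical start. In the direct test in 10A, KRT5 (log2 fold change 1.10, FDR 0.00111) and COL1A1 (1.26, FDR 0.00861) were both higher, and their part in the results was not tested.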

How the data were processed

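Reads had been mapped by the authors with BWA and Rsubread (build GRCh38), freed of duplicates with SAMtools, tested in windows with csaw and annotated with ChIPpeakAnno. Inputs were aliquots of each sample's chromatin. Normalization, the window filter and how inputs entered the csaw test were not given in the sources used here. In the deposited tables the log2 fold change belongs to a single window that csaw picked to represent a region, p-values and FDR (q-values) are the authors' own for whole regions, and numbers of windows are deposited as counts of tested windows, not reads. No value per library was available in these tables, so depth was unknown and no interval is given.

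Regions were called at the authors' FDR under 0.05 and direction, over the whole table. A gene's region was one over its canonical GENCODE release 44 transcript or within 1 kb of its start, and where several were found the one with the lowest FDR was used. The authors' placements on exons of member genes lay within 3 kb of that transcript in 98.6% of 293 cases, so GRCh38 coordinates were used together. Motifs, stem-loops and shared stretches of 100 bases were searched with Python 3 scripts in RefSeq promoters and GRCh38, and parser, overlap and search functions were tested on simulated data.

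Named were ANKRD11, the called member regions of each line and direction or the 5 with the lowest FDR where there were over 10, the gene of each family with the lowest FDR over input in shCTRL cells, genes enriched in 1 group of a line, H1-10, members in no table, NPAT, CASP8AP2, SLBP, H2AZ1, H2AX and H3-3B. One gene that the rule takes in is counted but not reported here by name. Other names in the text were chosen after their values were seen. Members and lists were chosen with earlier results of these data known. Members in no table were H1-7, H1-8, H2AC1, H2BC1, H2BC12L and H4C14, and H2AC25, H2BC26 and H4C16 under those symbols. Alternatives changed the FDR, the fold change, the direction rule, the windows and the placement of genes.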

Additional observations from a re-analysis of the deposited data

How the results depend on the processing

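Of 84 comparisons with an alternative setting, 72 left a count within 1.5 times its value or a median within 0.1. Some of the 72 could not have moved. Stricter settings cannot lower the count of 0 lower member regions in 10A. Every member region over input had an FDR below 0.01 and a log2 fold of at least 2.18, so asking for 0.01 or 2 changed nothing. The 72 is therefore no measure of stability. The 44 higher member regions in 10A became 20 at an FDR under 0.01, 16 where a log2 fold change of 1 or more was also asked for, 0 where that was measured from the median of the table, and 25 with at least 20 windows, a setting added after the data were seen. In DCIS the 1 higher region became 4 at an FDR under 0.1 and 0 with at least 5 windows, with at least 20 windows, or over a histone gene or within 1 kb of its start, and the 2 lower regions became 0 at an FDR under 0.01. The DCIS median log2 fold change of -0.03 moved to 0.15 over regions at a gene or within 1 kb of its start. It moved to 0.38 with 1 region per gene, over 58 genes that rest on 37 distinct regions. Its sign thus depends on how regions are assigned. The value of 0.38 compares with 0.19 over protein-coding genes, and so lies above them. The value of 0.15 compares with 0.33 over promoter-annotated regions and 0.52 over all regions. The 50 member regions enriched in 10A shCTRL cells became 22 at an FDR under 1e-10. Why these values moved was not tested.

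No paired analysis was possible because the deposited tables hold 1 value per region for whole groups and no value per library, which also prevented leaving out replicates. The number of reads behind a region was unknown.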
